A study of Mus musculus with 7 samples.

Results

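The enzymes that break down amino acids were examined in kidney RNA of MRL/lpr mice. The list held 40 genes, chosen by their symbols among the 53465 genes of the deposited count table, and covered routes of tyrosine, branched-chain amino acids, lysine, proline, glycine and tryptophan, with neighbouring steps and further Aldh enzymes that act outside these routes. The list was drawn up with earlier results of these data known. All 40 were found, and all 40 passed the filter on low counts that left 15774 genes to test. MRL/lpr mice carry a defective Fas gene and develop a spontaneous lupus-like disease with nephritis, and this background was shared by both groups. Kidneys of 4 mice given AZD1152 (barasertib), which the body converts to a blocker of the mitotic kinase Aurora B, were compared with kidneys of 3 mice given vehicle. Messenger RNA of renal tissue was sequenced in 7 libraries of 14692113 to 17036862 counts each, so that every cell type in the tissue contributed to a value. The sources used here state no age, sex, dose or schedule. All 21 pairs of libraries differed by more than counting noise, with a chi-square of at least 9.97 times its degrees of freedom.

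The kidney reabsorbs filtered amino acids in the proximal tubule, and the same cells oxidise many of them. Most of the enzymes work in the mitochondrial matrix, where carbon skeletons are turned into acetyl-CoA, succinyl-CoA or other intermediates of the citrate cycle, and a few work in peroxisomes or the cytosol. The kidney also makes guanidinoacetate, the precursor of creatine, from arginine and glycine, and it takes part in the breakdown of glycine, proline, D-amino acids and kynurenine.

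Since the genes were examined as a set, 250 bases before the annotated start of their RefSeq transcripts (GRCm38.p6) were searched for short motifs of tubule transcription factors. 43 windows were listed for 36 of the 40 genes; Aldh2, Aldh7a1, Dbt and Kynu were not matched. The sequences of Hpd, Hgd and Haao are shown, the first because that gene differed most between the groups, the second as the next enzyme of the same route and the third because it held 2 kinds of match. Capitals mark the matches.
Hpd (chr5:123182724-123182973, minus strand): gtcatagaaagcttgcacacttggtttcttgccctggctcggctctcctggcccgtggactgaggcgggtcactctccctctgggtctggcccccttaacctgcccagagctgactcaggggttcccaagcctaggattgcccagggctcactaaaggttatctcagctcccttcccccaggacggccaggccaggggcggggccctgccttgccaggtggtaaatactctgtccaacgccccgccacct
Hgd (chr16:37579903-37580152, plus strand): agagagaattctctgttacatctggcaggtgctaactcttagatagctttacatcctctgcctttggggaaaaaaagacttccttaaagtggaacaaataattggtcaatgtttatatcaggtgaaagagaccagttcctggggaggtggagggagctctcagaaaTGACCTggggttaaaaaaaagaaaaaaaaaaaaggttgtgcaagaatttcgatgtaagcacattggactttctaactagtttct
Haao (chr17:83846791-83847040, minus strand): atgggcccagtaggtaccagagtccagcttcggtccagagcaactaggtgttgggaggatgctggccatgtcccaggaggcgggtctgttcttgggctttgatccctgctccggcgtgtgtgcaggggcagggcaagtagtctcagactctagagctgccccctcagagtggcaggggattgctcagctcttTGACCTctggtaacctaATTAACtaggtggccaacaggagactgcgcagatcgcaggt
TGACCT, a core element bound by nuclear receptors, was present on either strand in windows of 11 of the 36 genes, which was 25.6% of the 43 windows beside 14.0% of all 32851 windows of the table. It stands in the window of Hgd 84 bases and in that of Haao 58 bases before the start. GTTAAT, an element of HNF1, was found for Bckdhb and Haao (4.65% of the windows beside 6.43% of all), and in Haao it lies on the opposite strand. CAAAGTCCA, a site of HNF4A, was present in none of the 43 windows and in 0.384% of all. The window of Hpd held none of the 3 words. These matches describe letters only, and binding was not measured.

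Kidneys of AZD1152-treated mice held more transcript of 21 of the 40 amino acid breakdown genes, led by Hpd of the tyrosine route and Kynu of the tryptophan route. By edgeR's quasi-likelihood test with the Benjamini-Hochberg adjustment (threshold 0.05), 21 of the 40 genes rose and 0 fell, where 3.02% of all genes tested rose and 4.81% fell (7.83% in either direction). All 40 estimates were positive. The median on the log2 scale was 0.43 and the range 0.03 to 1.66, beside a median of -0.001 over all genes, and 49.9% of all genes had positive estimates. With libraries scaled by total counts in place of TMM factors, which moved the median of all genes to -0.151, Amt and Ddc turned negative and 16 genes passed, and with libraries scaled to markers of the proximal tubule 22 of the 40 were negative. In 30 of the 40 genes the lowest AZD1152 library lay above the highest vehicle library, which was so for 11.2% of all genes. The genes were abundant, with a median of 136 CPM (counts scaled to the size of the library, with TMM factors) beside 18.5 CPM over all genes tested.

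**Figure D1:**
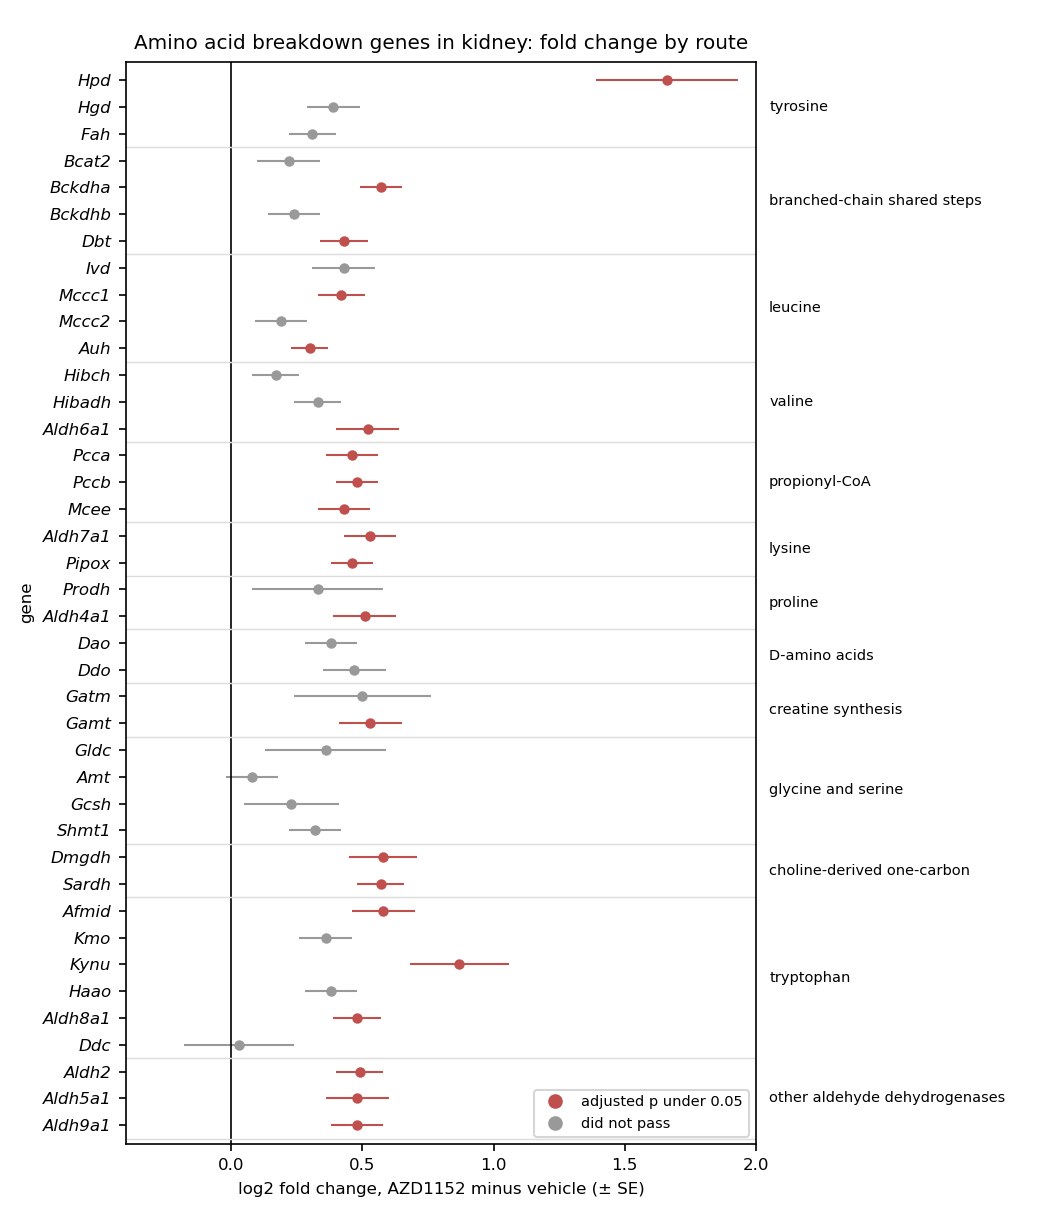
Log2 fold change of each of the 40 genes (AZD1152 minus vehicle, horizontal axis) with its standard error, ordered by route, in red where the adjusted p was under 0.05. Hpd stands at 1.66 and Kynu at 0.87, and the other 19 genes in red lie between 0.30 and 0.58.

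The number of genes called depended on single libraries. Vehicle replicate 3 was the lowest of all 7 libraries in 33 of the 40 genes, and AZD1152 replicate 2 was the highest in 25. Without vehicle replicate 3 the test called 3 of the 40 genes higher, and 60 of all genes in place of 476. The median log2 fold change of the 40 was then 0.34 in place of 0.43. It was 0.41 to 0.50 when any other single library was left out. The number called higher was 5 without vehicle replicate 1 (126 of all genes), 4 without AZD1152 replicate 4 (107 of all genes) and 12 without AZD1152 replicate 2 (229 of all genes), so that calls became fewer across the whole table and not among these enzymes alone. Calls of Bckdha, Pccb and Sardh held without any 1 of the 7 libraries, that of Hpd was lost without vehicle replicate 3 (edgeR adjusted p = 0.0532), and each other call was lost without at least 2 of the libraries.

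**Figure D2:**
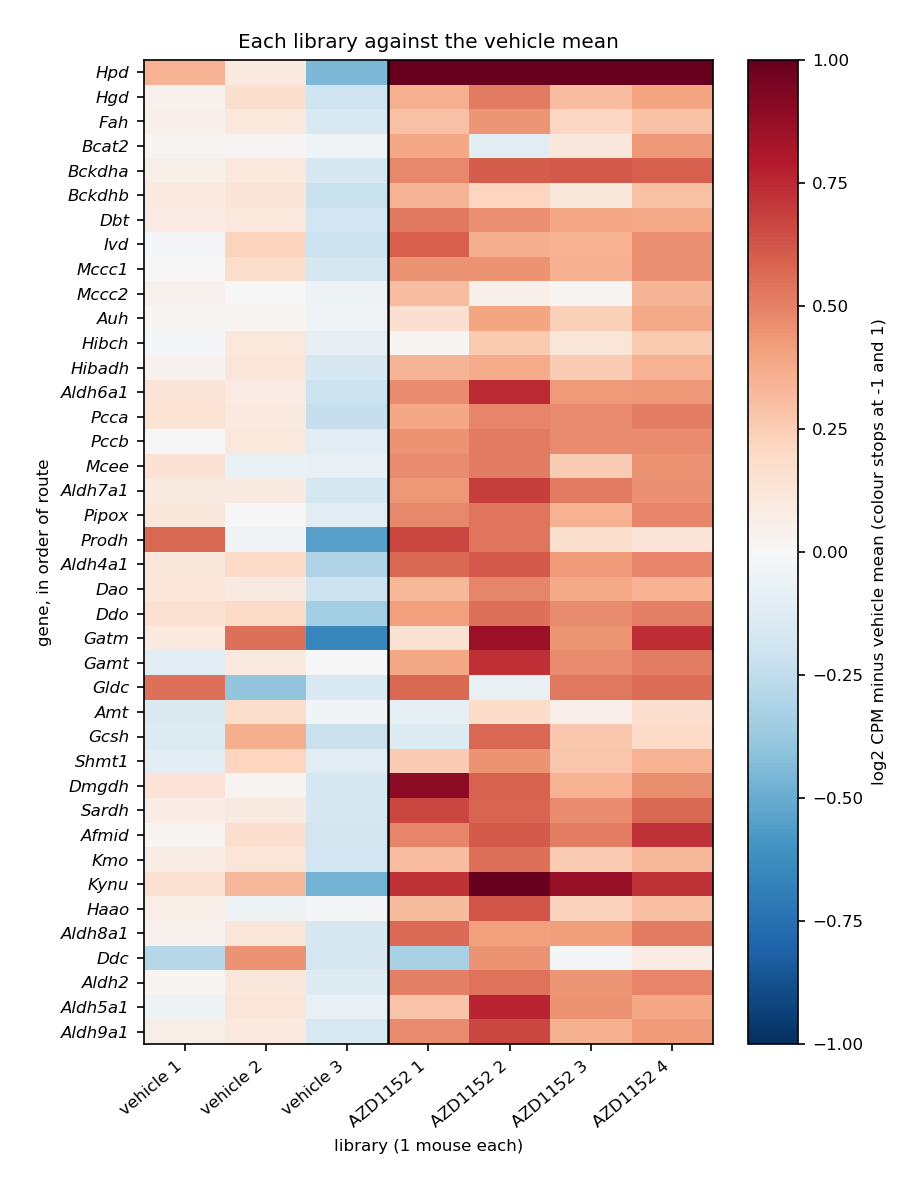
Log2 CPM of each gene (rows, in order of route) in each library (columns) minus the mean of the 3 vehicle libraries, with the colour scale ending at -1 and 1. Vehicle replicate 3 is below the vehicle mean in 39 of the 40 rows, and AZD1152 replicate 4 is above it in all 40.

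The summed level of the proximal tubule markers was also higher with AZD1152, without overlap. Of the 12 markers 4 rose and all 12 had positive estimates (median 0.47 on the log2 scale), and their summed level was 11447 to 13935 CPM with vehicle and 16343 to 19488 CPM with AZD1152. The summed level of the 40 enzymes was 6019 to 7325 CPM and 8877 to 9990 CPM. Macrophage markers went the other way, with 6 of 8 lower and sums of 889.9 to 1214 CPM and 413 to 640.4 CPM, and so did T cell markers, with 5 of 8 lower and sums of 88.4 to 137 CPM and 45.4 to 67.4 CPM. Of 10 distal nephron markers 4 rose and 0 fell, with 7 positive and 3 negative estimates (median 0.26 on the log2 scale). Their sums overlapped (4945 to 6260 CPM and 3689 to 6262 CPM). Most of each sum was Umod (2874 ± 535 and 2279 ± 668 CPM) and Slc12a1 (1528 ± 324 and 1254 ± 421 CPM). These genes, named after their values were seen, had estimates of -0.33 ± 0.23 and -0.29 ± 0.25 (SE) and did not pass. Transcripts of the mitochondrial genome had a median of 0.50 over 15 measured genes, of which 0 passed in edgeR. Higher with AZD1152 were 8 in DESeq2, 9 at an unadjusted edgeR p under 0.05 and 9 without overlap. Among all 15774 genes tested, 11.7% were higher and 13.1% lower at an unadjusted edgeR p under 0.05. DESeq2 called 950 of them higher and 1183 lower, and 11.2% were higher without overlap. Of 6 markers of B and plasma cells 0 passed in edgeR, 1 was lower in DESeq2 and 1 was lower at an unadjusted p under 0.05. Their sums varied widely between mice (114 to 780.3 CPM and 21.5 to 503 CPM). In tissue RNA, more cells of a type and more RNA per cell cannot be told apart, and the part of the cell type markers in the higher enzyme levels was not tested.

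**Figure D3:**
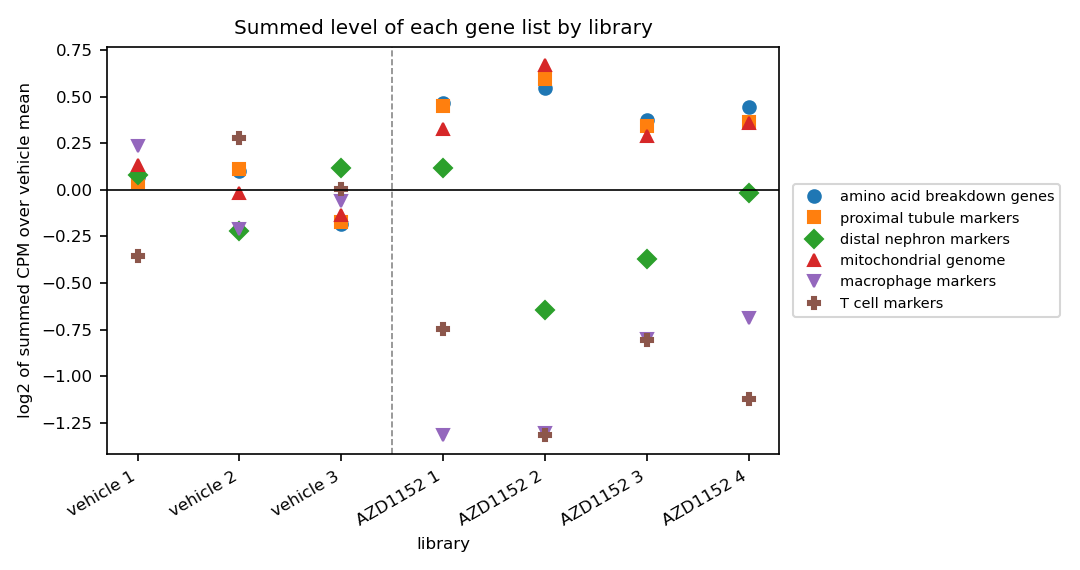
Log2 of the summed CPM of 6 gene lists in each library (horizontal axis) over the mean of the vehicle libraries. The enzymes and the proximal tubule markers are above 0 in each AZD1152 library, and the macrophage and T cell markers are below 0 there.

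The libraries were also scaled to the mean log2 CPM of the 12 proximal tubule markers, to see which enzymes differed from that mean. This choice was made after the data had been seen. On that scale the median of all genes was -0.465, the median of the 40 enzymes was -0.02, and 18 were above and 22 below 0. Hpd (log2 fold change 1.19 ± 0.18, SE; edgeR adjusted p = 0.0022) and Kynu (0.42 ± 0.15, adjusted p = 0.0416) were higher and Amt (-0.38 ± 0.15, adjusted p = 0.0496) was lower. The other 37 did not pass, with estimates from -0.44 for Ddc to 0.13 for Afmid. Under TMM the log2 fold changes of the 12 markers themselves ran from 0.14 to 0.81. Those of Hpd, Kynu and Amt were 1.66 ± 0.27, 0.87 ± 0.19 and 0.08 ± 0.10 (SE), so Kynu and Amt lay close to the range of the markers. Of all 15774 genes tested, 48 were higher and 7121 lower on that scale. The estimate of Amt lay above the median of all genes. Hepatocytes express many of the same enzymes. Of their 8 markers 5 passed the filter, of which 0 passed in edgeR and 0 in DESeq2. At an unadjusted p under 0.05, 2 were higher, beside 11.7% of all genes tested. The sum of the 8 was 590.1 to 617 CPM with vehicle and 624 to 824.5 CPM with AZD1152, without overlap, and most of it was Apob (559 ± 19.8 and 691 ± 109 CPM), which the kidney also makes. Fga had 32.7 ± 15.7 and 17.7 ± 8.17 CPM, and Alb had 3.19 to 7.27 CPM with vehicle and 5.74 to 12.6 CPM with AZD1152. Cps1 had 5 counts and Apoa1 24 counts over the 7 libraries. Apob and Fga were named after their values were seen, and the part of these markers in the result was not tested. Of the 4 markers of perirenal fat 0 passed the filter, and Adipoq and Lep had 0 counts in each library, which allows up to 0.212 CPM in the library with the highest such limit (3 counts, counting error only).

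The tyrosine route was led by Hpd, which encodes hydroxyphenylpyruvate dioxygenase, the enzyme that makes homogentisate. Hpd (ENSMUSG00000029445; GRCm38 chromosome 5, 123171807 to 123182727, minus strand) had 124, 104 and 71.0 CPM in vehicle replicates 1 to 3 and 377, 413, 206 and 259.8 CPM in AZD1152 replicates 1 to 4. The groups did not overlap, although the AZD1152 libraries spread widely, with replicate 2 highest and replicate 3 lowest. The mean rose 3.15-fold, from 99.6 ± 26.6 CPM with vehicle (SD, n = 3) to 314 ± 97.0 CPM with AZD1152 (SD, n = 4; log2 difference 1.66 ± 0.27, SE; adjusted p = 0.0138 in edgeR). Hgd, which opens the ring of homogentisate, had 295, 320.3 and 250.5 CPM with vehicle and 367, 412, 355 and 378 CPM with AZD1152. Fah, fumarylacetoacetate hydrolase, ends the route and had 260.2, 271 and 226 CPM and 308, 342, 290.5 and 308.5 CPM. Neither group pair overlapped, but neither gene passed, with log2 fold changes of 0.39 ± 0.10 and 0.31 ± 0.09 (SE; edgeR adjusted p = 0.0512 and 0.0773). Hgd passed in 6 alternative settings, DESeq2 and limma-voom among them, and Fah passed in DESeq2 only.

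All 7 Aldh genes of the list rose, within a narrow range of 0.48 to 0.53 on the log2 scale under TMM. When scaled to the proximal tubule markers 0 of the 7 passed (0.01 to 0.07), and all 7 calls were lost without vehicle replicate 3. Other Aldh genes were not examined. These dehydrogenases oxidise aldehydes that arise in different routes. Aldh2, the mitochondrial enzyme best known for acetaldehyde (ENSMUSG00000029455; chromosome 5, 121566027 to 121593824, minus strand), had 778, 831 and 701 CPM with vehicle and 1087, 1118, 1046 and 1072 CPM with AZD1152. Its AZD1152 libraries lay close together, and it rose by 0.49 ± 0.09 (log2, SE; adjusted p = 0.0197 in edgeR). Aldh6a1, the methylmalonate semialdehyde dehydrogenase of valine breakdown, had 751, 724 and 591 CPM and 949, 1151, 919 and 923 CPM, with AZD1152 replicate 2 above the rest. Aldh7a1, which oxidises aminoadipic semialdehyde of the lysine route, had 328, 326 and 272 CPM and 415, 497, 442 and 423 CPM. Aldh4a1 completes proline oxidation, Aldh8a1 acts on the aminomuconic semialdehyde of tryptophan, Aldh9a1 on trimethylaminobutyraldehyde in carnitine synthesis and Aldh5a1 on succinic semialdehyde. They rose by 0.51 ± 0.12, 0.48 ± 0.09, 0.48 ± 0.10 and 0.48 ± 0.12 (edgeR adjusted p = 0.0364, 0.0221, 0.0289 and 0.0411). Aldh4a1 shares 32.5% of its annotated exon bases with Gm21969, which held 0.0565 CPM, and Aldh6a1 shares 18.6% with Bbof1 on the other strand.

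**Figure D4:**
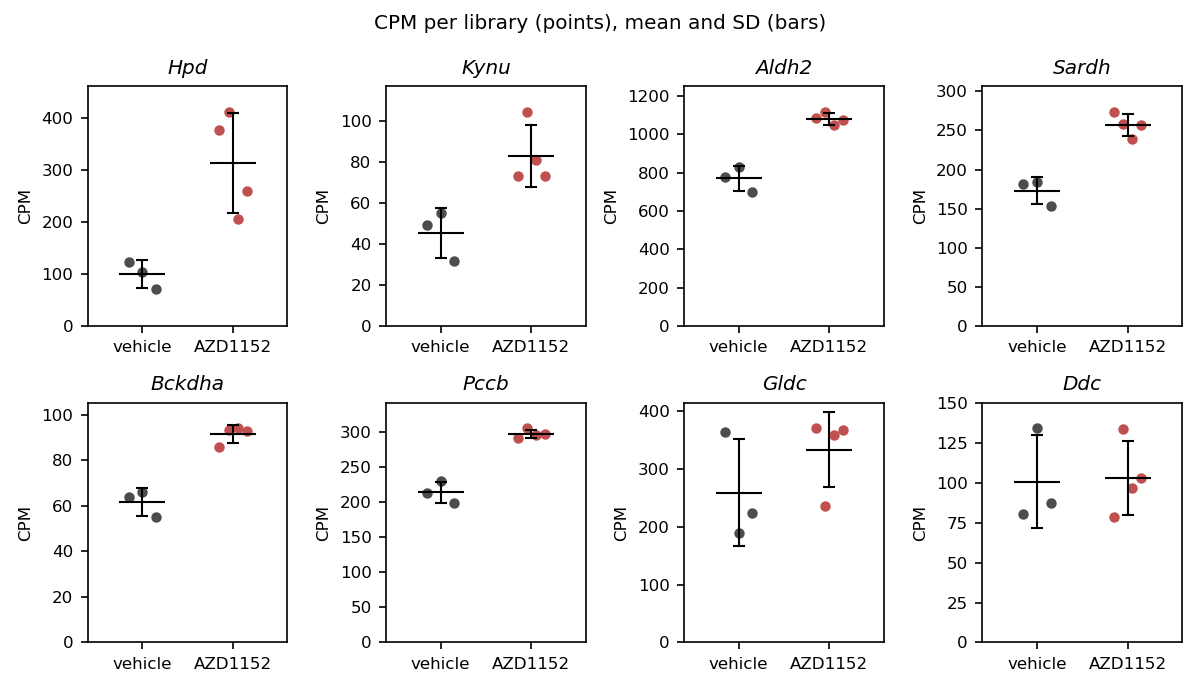
CPM of 8 genes per library (points) with the mean and SD of each group (black bars), vehicle n = 3 and AZD1152 n = 4. Hpd, Kynu, Aldh2, Sardh, Bckdha and Pccb have no overlap between the groups, while Gldc and Ddc overlap.

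Of the shared steps of leucine, isoleucine and valine, Bckdha and Dbt rose and Bcat2 and Bckdhb did not pass. Bcat2 removes the amino group, and Bckdha, Bckdhb and Dbt encode the decarboxylase subunits and the transacylase core of the branched-chain ketoacid dehydrogenase, the committed step. Bckdha (ENSMUSG00000060376; chromosome 7, 25629946 to 25658981, minus strand) had 63.9, 66.2 and 55.0 CPM with vehicle and 85.7, 93.5, 94.1 and 93.0 CPM with AZD1152, and AZD1152 replicate 1 was the lowest of its group. It rose by 0.57 ± 0.08 (log2, SE; adjusted p = 0.0107 in edgeR), without overlap. Bckdhb, its partner subunit, had 62.6, 63.9 and 50.2 CPM and 74.3, 68.1, 63.4 and 71.8 CPM, with overlap between the groups (0.24 ± 0.10, edgeR adjusted p = 0.177, and 0.13 without vehicle replicate 3). Dbt rose by 0.43 ± 0.09 (edgeR adjusted p = 0.0257), while Bcat2 had 0.22 ± 0.12 (edgeR adjusted p = 0.304). Of the annotated exon bases of Bckdha 61.7% are shared with B3gnt8 on the other strand, which held 4.13 and 4.25 CPM, and 15.9% of those of Bcat2 with 0610005C13Rik, which held 38.4 and 59.6 CPM. The counting rule for such bases was not given in the sources used here.

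The leucine route had 2 of 4 genes higher. Mccc1, the biotin-carrying subunit of methylcrotonyl-CoA carboxylase, went from 80.5 ± 9.69 to 108 ± 3.55 CPM (log2 fold change 0.42 ± 0.09, edgeR adjusted p = 0.0249). Its partner Mccc2 had 127, 123 and 119 CPM with vehicle and 152, 127, 125 and 155.5 CPM with AZD1152, so that the groups overlapped (0.19 ± 0.10, edgeR adjusted p = 0.27). Auh, the hydratase that follows, rose by 0.30 ± 0.07 (edgeR adjusted p = 0.0453). Ivd, isovaleryl-CoA dehydrogenase, had 380.1, 448 and 330.3 CPM and 580.5, 492, 487 and 525 CPM without overlap and did not pass (0.43 ± 0.12, edgeR adjusted p = 0.0584). It passed in 4 alternative settings, DESeq2 and limma-voom among them.

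In the valine route Aldh6a1 passed in edgeR, while Hibch and Hibadh did not. Hibch, hydroxyisobutyryl-CoA hydrolase, had 31.2, 34.0 and 29.8 CPM with vehicle and 32.1, 37.9, 34.4 and 37.9 CPM with AZD1152 (log2 fold change 0.17 ± 0.09, edgeR adjusted p = 0.305). Hibadh, hydroxyisobutyrate dehydrogenase, had 0.33 ± 0.09 (edgeR adjusted p = 0.0593), and Aldh6a1 had 0.52 ± 0.12 (edgeR adjusted p = 0.039). Hibadh did not overlap between the groups and passed in DESeq2 and limma-voom. The call of Aldh6a1 was lost whichever of the 7 libraries was left out.

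Propionyl-CoA, the product of valine and isoleucine, is carboxylated by the Pcca and Pccb subunits and passed to the epimerase Mcee, and all 3 genes rose. Pccb (ENSMUSG00000032527; chromosome 9, 100982032 to 101034898, minus strand) had 213, 229 and 198 CPM with vehicle and 290.4, 305, 295.5 and 296 CPM with AZD1152. The 4 AZD1152 values differed by little (a coefficient of variation of 2.01%), and the log2 fold change was 0.48 ± 0.08 (SE; edgeR adjusted p = 0.0129). Pcca had 139.7, 136 and 108 CPM and 167, 179, 176 and 182 CPM and rose by 0.46 ± 0.10 (edgeR adjusted p = 0.0275). Mcee rose by 0.43 ± 0.10, from 29.5 ± 2.59 to 39.6 ± 3.12 CPM (edgeR adjusted p = 0.0339).

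Pipox, the peroxisomal oxidase of pipecolate and sarcosine, rose from 222 ± 17.2 to 306 ± 16.9 CPM (log2 fold change 0.46 ± 0.08, edgeR adjusted p = 0.0197). The other peroxisomal enzymes were Dao, D-amino acid oxidase, and Ddo, D-aspartate oxidase. Dao had 267, 262 and 212 CPM with vehicle and 309, 345, 319 and 312 CPM with AZD1152. Ddo had 55.9, 57.3 and 39.6 CPM and 66.8, 73.5, 69.9 and 71.5 CPM. Both were without overlap and did not pass in edgeR, with 0.38 ± 0.10 and 0.47 ± 0.12 (adjusted p = 0.0506 and 0.051), and both had an unadjusted p under 0.05 and passed in DESeq2. Prodh, which starts proline oxidation, was the least abundant member per exon length. It had 18.2, 11.98 and 8.32 CPM and 19.5, 17.8, 13.7 and 13.4 CPM, with overlap (0.33 ± 0.25, edgeR adjusted p = 0.475). The estimate was 0.67 without vehicle replicate 1, 0.09 without vehicle replicate 3 and 0.22 without AZD1152 replicate 1.

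Of the enzymes of creatine synthesis Gamt, guanidinoacetate methyltransferase, rose from 12.01 ± 0.831 to 17.4 ± 1.86 CPM (log2 fold change 0.53 ± 0.12, edgeR adjusted p = 0.0318). Gatm, which makes guanidinoacetate, varied more between mice, with 79.2, 108 and 47.0 CPM with vehicle and 82.2, 134, 100.5 and 123 CPM with AZD1152. Its estimate of 0.50 ± 0.26 did not pass (edgeR adjusted p = 0.281), and it was 0.80 without vehicle replicate 2 and 0.23 without vehicle replicate 3.

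Of the glycine and serine genes 0 of 4 passed in edgeR. There 1 was higher at an unadjusted p under 0.05, beside 11.7% of all genes tested. DESeq2 called 1 higher, beside 950 of all 15774 genes. Gldc, Amt and Gcsh encode the decarboxylase, the aminomethyltransferase and the carrier of the glycine cleavage system. Gldc had 364.5, 189 and 225 CPM with vehicle and 371, 237, 359 and 368 CPM with AZD1152. Vehicle replicate 1 was as high as the AZD1152 libraries, and AZD1152 replicate 2 was nearer to the other vehicle libraries than to its own group (0.36 ± 0.23, edgeR adjusted p = 0.385). The estimate was 0.69 without vehicle replicate 1 and 0.18 without vehicle replicate 2. Gcsh followed another order, with 72.3, 102 and 67.9 CPM and 72.3, 119, 96.0 and 91.4 CPM (0.23 ± 0.18, adjusted p = 0.49 in edgeR), and its estimate was 0.43 without vehicle replicate 2, 0.12 without vehicle replicate 3 and 0.09 without AZD1152 replicate 2. Amt had 56.4, 70.5 and 61.5 CPM and 58.8, 71.2, 65.6 and 70.2 CPM (0.08 ± 0.10, edgeR adjusted p = 0.664). Shmt1, the cytosolic serine hydroxymethyltransferase, did not overlap between groups, with 112 to 141 CPM and 145 to 166 CPM, and had 0.32 ± 0.10 (edgeR adjusted p = 0.0799).

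Both enzymes that strip methyl groups from choline-derived dimethylglycine and sarcosine rose. Sardh, sarcosine dehydrogenase (ENSMUSG00000009614; chromosome 2, 27188393 to 27248337, minus strand), had 182, 184 and 154 CPM with vehicle and 274, 258, 239.6 and 257 CPM with AZD1152. The groups did not overlap, and the gene rose by 0.57 ± 0.09 (log2, SE; adjusted p = 0.0125 in edgeR). Dmgdh, dimethylglycine dehydrogenase, had 104, 96.7 and 84.3 CPM and 176, 143, 121 and 131 CPM (0.58 ± 0.13, edgeR adjusted p = 0.0352), with AZD1152 replicate 1 highest in both genes.

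In the tryptophan route Afmid, Kynu and Aldh8a1 rose, and Kmo, Haao and Ddc did not pass. Afmid releases kynurenine, Kmo hydroxylates it, Kynu cleaves the product and Haao opens the ring of hydroxyanthranilate on the way to NAD. Kynu (ENSMUSG00000026866; chromosome 2, 43555329 to 43682715, plus strand) had 49.0, 55.1 and 31.8 CPM with vehicle and 72.8, 104, 80.9 and 72.8 CPM with AZD1152. It rose 1.82-fold (log2 fold change 0.87 ± 0.19, SE; edgeR adjusted p = 0.0334), and vehicle replicate 3 was the lowest and AZD1152 replicate 2 the highest library. Afmid rose from 14.6 ± 1.78 to 21.9 ± 1.62 CPM (0.58 ± 0.12, edgeR adjusted p = 0.0237), and 44.2% of its annotated exon bases are shared with Gm20708, which had 0 CPM. Kmo had 167, 173 and 139.6 CPM and 197, 234, 189.5 and 200.2 CPM, and Haao had 63.1, 58.4 and 59.7 CPM and 75.0, 93.4, 70.7 and 74.4 CPM. Neither overlapped between the groups (0.36 ± 0.10 and 0.38 ± 0.10, edgeR adjusted p = 0.0695 and 0.0544), and both passed in DESeq2. Ddc, the aromatic amino acid decarboxylase that makes dopamine in tubule cells, had 80.3, 134 and 87.5 CPM and 78.3, 134, 96.8 and 103 CPM. Its groups covered the same range (0.03 ± 0.21, edgeR adjusted p = 0.945).

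By compartment, 14 of 26 mitochondrial, 1 of 3 peroxisomal and 6 of 11 cytosolic enzymes rose. Their median log2 fold changes were 0.43, 0.46 and 0.48, close to each other beside the range of the members, and the compartments were not tested against each other.

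Levels of different genes were compared as RPKM, which is CPM divided by the kilobases of annotated exon. With vehicle, Aldh2 was highest at 150.2 ± 12.8 RPKM (SD, n = 3), followed by Aldh6a1 (119 ± 14.8), Fah (114 ± 10.4), Hgd (110.4 ± 13.5) and Aldh9a1 (104 ± 9.36), and from Aldh6a1 on, neighbours in this order lay within their spread of each other. Prodh was lowest at 1.65 ± 0.641 RPKM, below Afmid (4.14 ± 0.503) and Hibch (5.22 ± 0.354). With AZD1152, Aldh2 had 211 ± 5.84 RPKM (SD, n = 4) and Aldh6a1 170.4 ± 19.2 RPKM, and Hpd went from rank 13 to rank 3 at 147 ± 45.6 RPKM, within its spread of Aldh9a1 (145 ± 13.8) and Hgd (144 ± 9.31). Prodh was rank 40 in both groups. The exon length joins all annotated transcripts, so genes with long alternative ends have lower values on this scale.

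**Figure D5:**
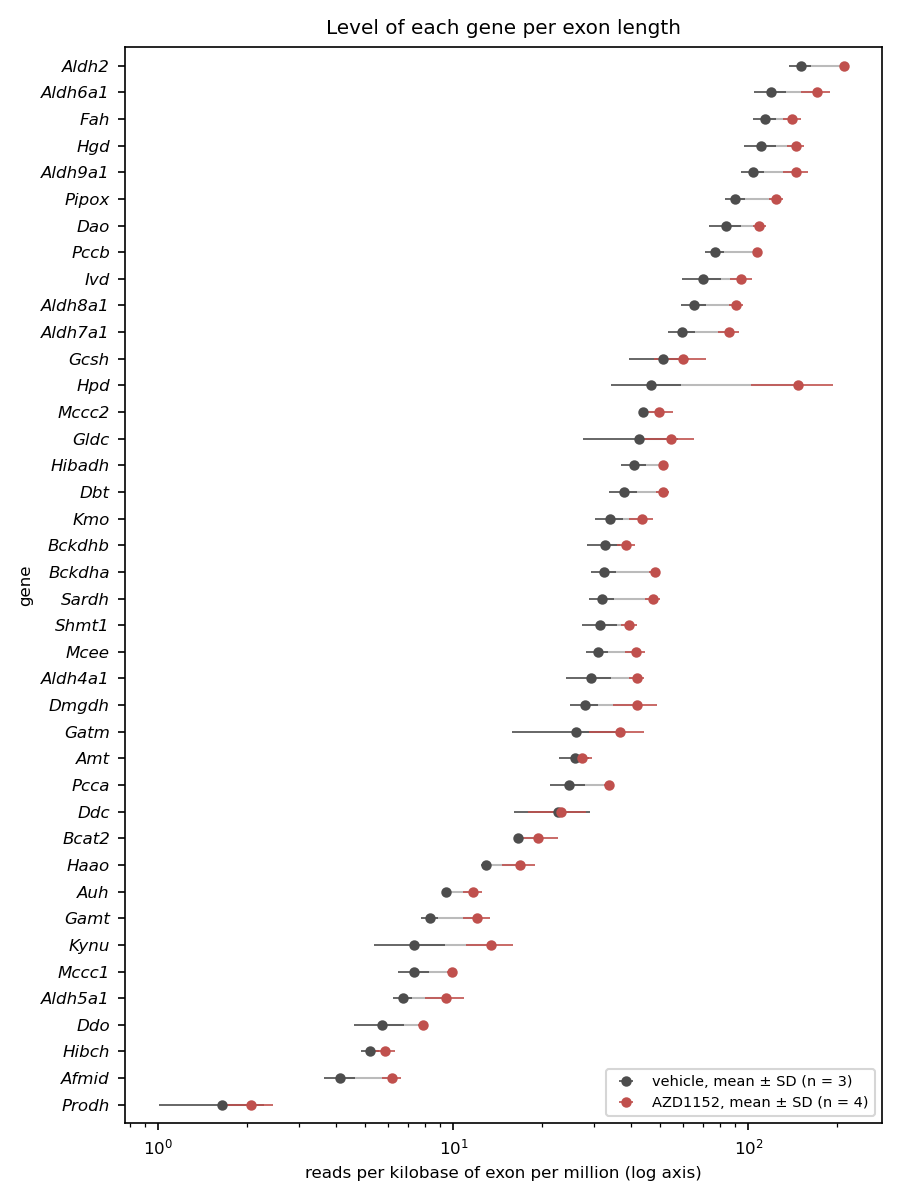
RPKM of the 40 genes (log axis) with vehicle (grey, mean ± SD, n = 3) and AZD1152 (red, mean ± SD, n = 4), ordered by the vehicle mean. The levels run from 1.65 RPKM for Prodh to 150.2 RPKM for Aldh2 with vehicle, and the longest step between groups is that of Hpd.

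Members that act in 1 complex or in neighbouring steps were compared within each library as log2 ratios of CPM, over 12 pairs. Hgd and Fah are not consecutive, as Gstz1 acts between them. An exact two-sided permutation test of 4 against 3 libraries has 35 arrangements and cannot go below p = 0.0571, so none could pass. The groups did not overlap in 4 of the 12 pairs, and how often this occurs among other gene pairs was not computed. Bckdha over Bckdhb was 0.03, 0.05 and 0.13 with vehicle and 0.20, 0.46, 0.57 and 0.37 with AZD1152, a difference of 0.33 (exact permutation p = 0.0571, Benjamini-Hochberg adjusted p = 0.171). Kynu over Haao differed by 0.52, Hibch over Hibadh by -0.16 and Hgd over Fah by 0.09, with the same p. Pcca over Pccb was -0.74 ± 0.13 and -0.75 ± 0.04, and Dmgdh over Sardh was -0.86 ± 0.06 and -0.86 ± 0.16. The ratios of Gldc to Amt and to Gcsh varied within groups by SDs of 0.40 to 0.72, more than they differed between groups (0.31 and 0.17).

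Among other genes of amino acid breakdown, 17 rose and 1 fell. Of 65 such genes, chosen by route, 58 passed the filter, and 29.3% of the 58 rose. Of all genes tested, 3.02% rose and 4.81% fell. The 58 had a median of 0.29 on the log2 scale, with 46 positive and 12 negative estimates. The 17 became 3 without vehicle replicate 1, 2 without vehicle replicate 3, 3 without AZD1152 replicate 4, 9 without AZD1152 replicate 1 and 6 without AZD1152 replicate 2 or replicate 3. In the same order, the 476 higher genes of all became 126, 60, 107, 311, 229 and 249. Dhtkd1, a subunit of the oxoadipate dehydrogenase complex, rose by 0.68 ± 0.09, Gcdh, glutaryl-CoA dehydrogenase, by 0.51 ± 0.09 and Aass, which starts the saccharopine route, by 0.53 ± 0.12 (edgeR adjusted p = 0.00951, 0.0174 and 0.033). Aadat and Dlst of the lysine route, and Hykk, hydroxylysine kinase, were named after their values were seen. Aadat had -0.53 ± 0.30, with overlap, and Dlst 0.27 ± 0.10, and neither passed (edgeR adjusted p = 0.317 and 0.123). Hykk rose by 0.47 ± 0.12 (edgeR adjusted p = 0.0458). Prodh2, hydroxyproline dehydrogenase, rose by 0.64 ± 0.10, and Bhmt, which methylates homocysteine with betaine, by 1.21 ± 0.29, from 29.1 ± 11.5 to 67.3 ± 17.6 CPM (edgeR adjusted p = 0.0123 and 0.0394). Acat1 and Hsd17b10, of the end of the isoleucine route, rose by 0.49 ± 0.10 and 0.41 ± 0.09, and Gstz1, between Hgd and Fah in the tyrosine route, by 0.39 ± 0.09. Ahcy and Gnmt of the methyl cycle rose by 0.50 ± 0.11 and 0.43 ± 0.09, and Abat, the GABA transaminase, by 0.54 ± 0.13. Hal, histidine ammonia-lyase, fell from 4.56 ± 1.04 CPM with vehicle to 1.97 ± 0.426 CPM with AZD1152 (log2 difference -1.21 ± 0.24, adjusted p = 0.0242 in edgeR), and this call was lost without vehicle replicate 1, vehicle replicate 3 or AZD1152 replicate 4.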

How the data were processed

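Kidney RNA of 4 AZD1152-treated and 3 vehicle-treated MRL/lpr mice was analysed from 1 table of read counts per gene. The authors deposited raw, whole-number counts. Libraries were made from oligo(dT)-selected RNA with a TruSeq RNA kit, per the labels' protocols. CASAVA, HISAT2 2.0.5, DESeq2, DESeq and GRCm38 are named in the submitters' processing notes. Which program counted the reads, with which annotation and whether by strand, is not given in the sources used here, and overlapping genes cannot be told apart. Groups came from the sample titles and the series' design. Of 53465 genes 53360 were named with GENCODE mouse M21.

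Genes were filtered with filterByExpr, scaled by TMM and tested with edgeR 4.0.16 (R 4.3.3; quasi-likelihood, no covariate, Benjamini-Hochberg adjustment over 15774 genes, threshold 0.05). The standard error is the size of the log2 fold change over the square root of F. On simulated data the fit recovered 34.2% of genes changed 1.5-fold and 76% of those changed 2-fold for this comparison, on 15567 genes. A depth of 14692113 to 17036862 counts puts the limit that 3 counts allow at 0.166 to 0.212 CPM.

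The members and lists were chosen with earlier results of these data known. All 40 members are named, and of the other amino acid genes those that passed, up to 12 by smallest p. Alternatives were RLE, upper-quartile and total-count scaling, TMM computed without the 50 most abundant genes and without mitochondrial and immunoglobulin genes, no filter, a stricter filter (1 CPM in 3 libraries and a mean of 2 CPM), DESeq2 1.42.0, limma-voom 3.58.1, a replicate block and each library left out. Scaling to the proximal tubule markers was added after seeing the data. Log2 ratios used a prior count of 2. Nothing in the sources used here describes batches.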

Additional observations from a re-analysis of the deposited data

Results flagged for a closer look

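Each of the 40 genes was screened for a library far from the other 3 of the AZD1152 group, by the gap to its nearest neighbour over the range of the group (Dixon's test at its 95% level), and 4 genes had one. Chance gives such a gap in about 1 in 20 groups. Aldh6a1 had its highest value in AZD1152 replicate 2, at 1151 CPM. Gldc had its lowest in the same library, at 237 CPM, below the highest vehicle library. Bckdha was lowest in AZD1152 replicate 1, at 85.7 CPM, and Mccc1 in AZD1152 replicate 3, at 103 CPM, and both values were above every vehicle library of the same gene.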

How the results depend on the processing

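Under TMM, RLE, upper-quartile and total-count scaling, TMM without abundant genes, both filters, DESeq2 and limma-voom, between 16 and 30 of the 40 genes were higher and 0 were lower. Leaving out single libraries gave 3 to 20 higher members, 60 to 475 higher and 163 to 619 lower genes of all, and 2 to 16 higher and 0 to 1 lower of the other amino acid genes. Total counts gave 233 higher and 1480 lower genes (13.6% of calls higher beside 38.5%) and 10 higher other amino acid genes. DESeq2 gave 950 and 1183, with 27 higher and 2 lower other amino acid genes; no filter gave 3 lower ones. Scaled to the proximal tubule markers, 2 members were higher and 1 lower, 48 and 7121 of all genes (0.67% of calls higher), and 2 and 9 of the other amino acid genes. Deviations from group means correlated by -0.288, 0.209 and -0.119 between libraries of the same replicate number. Between libraries of different numbers they correlated by -0.232 to 0.299, and so few libraries cannot show whether numbers pair the mice. The replicate block gave 3 higher members, 63 higher and 146 lower genes, and 1 higher and 0 lower other amino acid genes. It left AZD1152 replicate 4 without a partner and few degrees of freedom, so fewer calls do not speak to pairing.

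Signs turned for 2 members with total counts and for 22 on the tubule marker scale. Total counts gave -0.07 for Amt and -0.12 for Ddc, and Ddc was -0.13 to -0.06 without vehicle replicate 1, vehicle replicate 3 or AZD1152 replicate 2 (-0.10, -0.06 and -0.13) and 0.30 without vehicle replicate 2. Scaled to the proximal tubule markers, log2 fold changes were -0.07 for Hgd, -0.16 for Fah, -0.22 for Bckdhb, -0.02 for Dbt, -0.23 for Bcat2, -0.02 for Ivd, -0.03 for Mccc1, -0.27 for Mccc2, -0.17 for Auh, -0.13 for Hibadh, -0.29 for Hibch, -0.04 for Mcee, -0.12 for Prodh, -0.08 for Dao, -0.07 for Gldc, -0.38 for Amt, -0.23 for Gcsh, -0.14 for Shmt1, -0.00 for Pipox, -0.10 for Kmo, -0.10 for Haao and -0.44 for Ddc. On that scale Gstz1 was -0.07, Hsd17b10 -0.06, Mut -0.02, Gnmt -0.02, Srr -0.18 and Oat -0.00. That scaling sets the mean of 12 tubule markers to no change by construction; for the other settings the cause was not tested.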
